A study of Mus musculus with 5 samples.

Results

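The developmental transcription factor families described here comprise the Fox, Sox, Pax, Lhx, Nkx and Tbx genes. They were chosen by symbol, as autosomal protein-coding genes of the mouse assembly mm9 that start with one of these 6 family names and a number, which gave 100 of 21343 autosomal protein-coding genes. There were 40 Fox, 17 Sox, 14 Nkx, 12 Tbx, 9 Pax and 8 Lhx genes. Chromatin immunoprecipitation with sequencing (ChIP-seq) was performed on CD4+CD8+ double-positive (DP) thymocytes, an immature stage of T cell development, and asked where Cxxc1 binds and where histone H3 carries trimethylation of lysine 4 (H3K4me3) with and without Cxxc1. The wild-type (WT) mice were Cxxc1 fl/fl without Cre. The Cxxc1-deficient mice were Cxxc1 fl/fl with hCD2-Cre, a transgene that is active in early thymocytes and in other immune cells and removes exons 4 and 5, so all groups carried the floxed allele. This allele was made in ES cells of strain 129 and crossed onto C57BL/6, and the mice were 3 to 4 weeks old unless the study's methods stated otherwise. The titles call the Cxxc1-deficient libraries knockouts whereas their genotype label reads Cxxc1+/-, and the titles were followed. Whether the ChIP-seq chromatin was pooled over animals is not given in the sources used here.

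The family names stand for DNA-binding folds: Fox proteins carry a forkhead domain, Sox proteins an HMG box, Pax proteins a paired domain, Lhx proteins LIM domains with a homeodomain, Nkx proteins a homeodomain and Tbx proteins a T-box. Most members specify tissues in the embryo, and a few act in T cells. H3K4me3 is placed around transcription start sites (TSSs), mostly where the DNA is rich in unmethylated CpG, and Cxxc1, a subunit of the Setd1 methyltransferase complexes, binds such DNA. Promoters of developmental factors are known for CpG islands that Polycomb proteins hold inactive in tissues that do not use the gene.

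Promoter sequences are given for members with high WT H3K4me3 and for CpG-rich members without a listed window at a TSS. The 200 bases before the outermost TSS are printed 5′ to 3′ on the gene's strand in mm9, with every CG in capitals. The first set belongs to the members with high WT H3K4me3, namely Sox4 at chr13:29045583-29045782 (minus strand), Foxo1 at chr3:52072059-52072258 (plus strand), Sox12 at chr2:152223783-152223982 (minus strand) and Foxo3 at chr10:41996562-41996761 (minus strand). Foxm1, which ranked between Sox4 and Foxo1, is not printed because an annotated exon overlaps its 200 bases.
Sox4: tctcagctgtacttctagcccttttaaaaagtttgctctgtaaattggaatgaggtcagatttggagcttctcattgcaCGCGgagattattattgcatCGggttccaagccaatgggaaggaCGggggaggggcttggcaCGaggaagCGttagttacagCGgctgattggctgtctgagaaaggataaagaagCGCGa
Foxo1: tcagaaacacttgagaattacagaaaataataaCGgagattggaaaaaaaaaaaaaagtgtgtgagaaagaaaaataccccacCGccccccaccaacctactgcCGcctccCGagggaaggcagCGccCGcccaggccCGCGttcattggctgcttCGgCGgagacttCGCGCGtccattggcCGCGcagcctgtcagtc
Sox12: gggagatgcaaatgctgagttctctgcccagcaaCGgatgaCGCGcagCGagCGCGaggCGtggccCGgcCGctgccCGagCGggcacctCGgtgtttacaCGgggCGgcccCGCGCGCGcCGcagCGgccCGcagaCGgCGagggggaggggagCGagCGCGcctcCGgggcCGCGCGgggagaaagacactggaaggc
Foxo3: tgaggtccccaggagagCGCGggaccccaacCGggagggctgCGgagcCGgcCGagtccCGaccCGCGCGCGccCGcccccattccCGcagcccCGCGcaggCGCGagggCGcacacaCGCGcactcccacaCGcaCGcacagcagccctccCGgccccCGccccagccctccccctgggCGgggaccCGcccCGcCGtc
The second set belongs to the members without a window of any list at a TSS that were the most CpG-rich of their family, namely Foxf1a at chr8:123608086-123608285 (plus strand), Sox11 at chr12:28027575-28027774 (minus strand), Nkx1-1 at chr5:33776626-33776825 (minus strand) and Tbx2 at chr11:85645853-85646052 (plus strand).
Foxf1a: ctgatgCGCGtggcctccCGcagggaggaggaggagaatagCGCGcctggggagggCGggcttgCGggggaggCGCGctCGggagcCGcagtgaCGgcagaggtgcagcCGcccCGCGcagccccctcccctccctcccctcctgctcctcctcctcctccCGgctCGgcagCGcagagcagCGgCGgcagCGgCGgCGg
Sox11: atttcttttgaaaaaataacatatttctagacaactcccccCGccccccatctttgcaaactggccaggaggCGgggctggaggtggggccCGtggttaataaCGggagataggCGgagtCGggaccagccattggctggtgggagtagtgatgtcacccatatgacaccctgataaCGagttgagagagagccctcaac
Nkx1-1: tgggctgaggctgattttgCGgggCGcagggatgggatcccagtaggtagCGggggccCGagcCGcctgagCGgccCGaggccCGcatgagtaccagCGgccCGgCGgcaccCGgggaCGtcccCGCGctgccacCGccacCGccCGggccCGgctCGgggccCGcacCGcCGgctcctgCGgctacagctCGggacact
Tbx2: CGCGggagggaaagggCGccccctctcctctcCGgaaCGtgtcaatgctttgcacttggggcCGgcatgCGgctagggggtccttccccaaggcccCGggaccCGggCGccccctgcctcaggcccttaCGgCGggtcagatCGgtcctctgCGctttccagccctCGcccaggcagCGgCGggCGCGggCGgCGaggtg
The CG number was 9 in Sox4, 15 in Foxo1, 30 in Sox12 and 28 in Foxo3, against 23 in Foxf1a, 7 in Sox11, 25 in Nkx1-1 and 21 in Tbx2. Both sets therefore held a sequence near the median of 8 CG of all autosomal genes over these 200 bases, and sequences well above it. Of all autosomal genes, 3.36% had as many CG as Sox12, 7.51% as many as Nkx1-1 and 53.6% as many as Sox11. Over 1 kb on either side of the outermost TSS, Foxf1a and Sox11 each held 206 CpG, Nkx1-1 179 and Tbx2 174, against 119 in Sox4, 215 in Foxo1, 234 in Sox12 and 164 in Foxo3. Around its most CpG-rich TSS Sox4 held 187. The second set was chosen by this CpG number and the first by H3K4me3, so the sets do not compare listed with unlisted members.

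The data were 3 lists of windows of 200 bp inside the regions the authors called enriched, 1 list each for WT H3K4me3, Cxxc1-deficient H3K4me3 and Cxxc1, with a value per window in RPM (tags per 1 M mapped tags). A gene is called listed where at least 1 window overlapped the 1 kb on either side of one of its TSSs. Only TSSs of protein-coding transcripts were used. Each list came from 1 library, so the genotypes were compared without replicates and no test was run. The signal at a promoter without a window is unknown and need not be 0. A mark carried by a few of the cells and a weaker mark in all of them cannot be told apart. WT H3K4me3 held 14237 peaks (neighbouring windows joined), Cxxc1-deficient H3K4me3 2979 and Cxxc1 4352, at similar inferred depths of 9.412 to 9.473 M tags for the H3K4me3 libraries and 9.091 to 9.142 M tags for Cxxc1. The Cxxc1 list carries no genotype and was assigned to WT from the study's methods. Of 8 DP marker genes, 3 were listed in WT H3K4me3 (Cd3e, Cd8a and Cd8b1) and Cd4, Rag1 and Rag2 were not, so a promoter in use can be missing from the list. None of 7 marker genes of B cells, myeloid cells and epithelium was listed in any of the 3 lists. Only 1 of these 7 had a CpG island at a TSS (defined below). Of all autosomal genes without an island 7.18% were listed in WT H3K4me3, so few of the 7 would be listed whatever the cell type.

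At their TSSs, 37 of the 100 developmental factor genes were listed in WT H3K4me3 (37.0%, 95% Wilson interval 28.2 to 46.8), against 32.5% of all autosomal genes. In Cxxc1-deficient H3K4me3 10 were listed (10%, 5.52 to 17.4), against 6.11% of all autosomal genes. Cxxc1 was listed at 3 of them (3.0%, 1.03 to 8.45), against 2.03%. Both genotypes had H3K4me3 at 6 members, against 4.15% of all autosomal genes. The member interval of each list included the share of all autosomal genes. No window of any list lay at a TSS of 58 members, against 13773 of all 21343 autosomal genes. Among genes with a CpG island these were 49 of 88 members, against 5550 of 12268 other genes. A CpG island is here a stretch of at least 500 bp within 1 kb of a TSS at 55% GC or more. It also has 0.65 or more times the CpG expected from base composition. Of the 58 members, 45 were also without a window in the gene body, for which the share of all genes was not computed.

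By family, the members listed in WT H3K4me3 were 18 of 40 Fox genes (45.0%, 30.7 to 60.2), 8 of 17 Sox genes (47.1%, 26.2 to 69.0), 4 of 9 Pax genes (44.4%, 18.9 to 73.3), 3 of 8 Lhx genes (37.5%, 13.7 to 69.4) and 4 of 12 Tbx genes (33.3%, 13.8 to 60.9). None of the 14 Nkx genes was listed, which leaves a share of up to 21.5%, although 12 of them had a CpG island at a TSS. Of all autosomal genes 32.5% were listed in WT, and of those with a CpG island 50.9%. The intervals cover counting over few genes. The upper limit of Nkx lay below 32.5% and below the lower limits of Fox and Sox, a difference that was not tested. The intervals of the other families overlapped one another and included 32.5%.

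**Figure D1:**
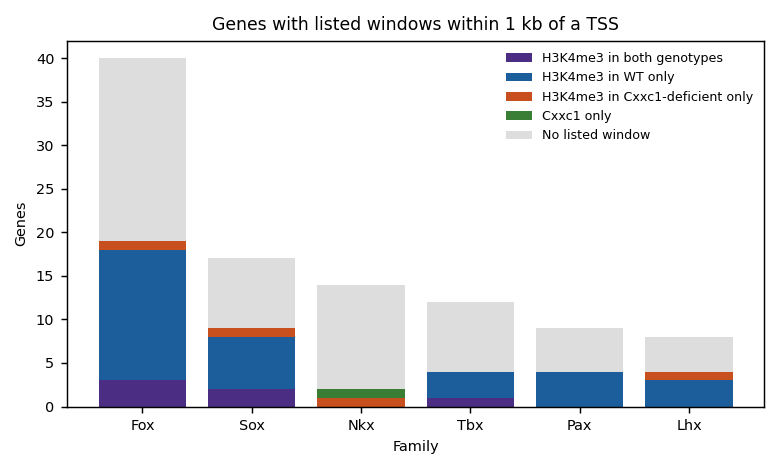
Number of genes in each family (y axis, bars) by which lists had a window within 1 kb of a TSS (colours); the 58 genes without a window are grey. The Nkx bar has no WT H3K4me3 part, and the Fox bar holds 18 of the 37 genes listed in WT.

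CpG content separated listed from unlisted genes less clearly among the developmental factors than among other genes. A CpG island lay at a TSS of 88 of the 100 members, against 57.8% of the other autosomal genes. Among genes with such an island, WT H3K4me3 was listed at 34 of 88 members (38.6%, 29.1 to 49.1), against 6250 of 12268 other genes (50.9%, 50.1 to 51.8), so the interval of the members lay below the share of the others. With the stronger 50% of peaks alone the shares were 26.1% of members (18.1 to 36.2) and 33.3% of all genes with an island, and the interval included the latter. The median CpG number within 1 kb of the outermost TSS was 119 in the 37 members listed in WT and 110 in the 63 that were not, against 97 and 36 in the other autosomal genes. Around the most CpG-rich TSS these medians were 136 and 118 in members, against 101 and 39. Among genes with a CpG island the gap of the other genes was smaller. Their medians at the outermost TSS were 102 and 85, against 122 and 119 in members. With genes grouped by the CpG number around their most CpG-rich TSS, members with 150 or more CpG were listed in 12 of 31 cases (38.7%, 23.7 to 56.2), against 1006 of 1530 other genes (65.8%, 63.3 to 68.1). With 100 to 149 CpG the shares were 15 of 34 (44.1%, 28.9 to 60.5) against 59.2%, and with 50 to 99 CpG 7 of 24 (29.2%, 14.9 to 49.2) against 41.8%. With 49 or fewer CpG, 3 of 11 members were listed (27.3%, 9.75 to 56.6), namely Tbx6, Foxs1 and Tbx5, against 5.83%.

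**Figure D2:**
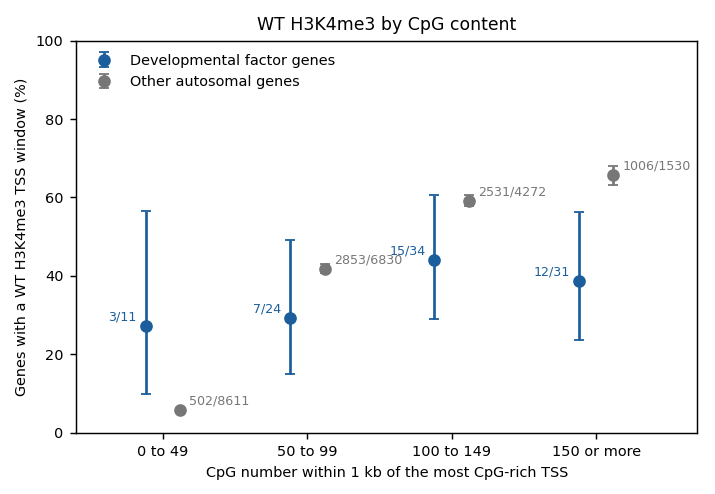
Share of genes with a WT H3K4me3 window within 1 kb of a TSS (y axis, percent) by the CpG number within 1 kb of the most CpG-rich TSS (x axis) for the developmental factor genes (blue) and other autosomal genes (grey); bars are 95% Wilson intervals and labels give listed over all genes. The share of the other genes went from 5.83% to 65.8% over the classes, while that of the members was between 27.3% and 44.1%.

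At 2 kb downstream of the TSS, a WT H3K4me3 window was listed at a larger share of all members than of non-members with a CpG island. The sets are unlike, since the members here include those without an island, and the distances given are points of a longer profile. At 2 kb from the outermost TSS, 11 of 100 members had a window (11%, 6.25 to 18.6), against 4.89% of the other genes with a CpG island (4.52 to 5.29). At 100 bp downstream the shares were 23.0% (15.8 to 32.2) and 40.2%. These shares count any listed window at that distance, also one of a separate peak such as that of Foxf1a, and the extent of peaks was not compared. The strongest window lay downstream of the nearest TSS of the gene in 19 of the 37 listed members. Lhx2 (6400 bp), Foxo3 (5200 bp) and Sox12 (4400 bp) had the widest promoter peaks.

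**Figure D3:**
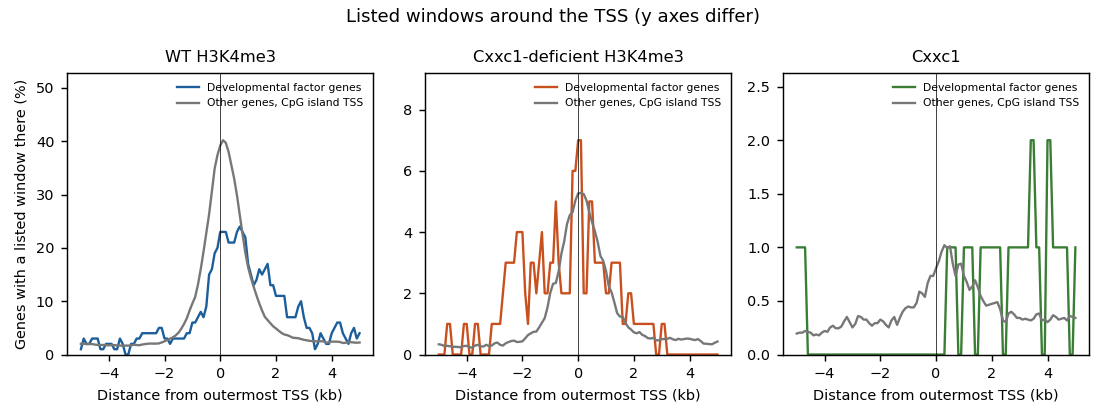
Share of genes with a listed window (y axis, percent, different range in each panel) by distance from the outermost TSS (x axis, kb, downstream positive) for the 100 developmental factor genes (coloured) and other genes with a CpG island (grey), 1 panel per list. In the WT H3K4me3 panel the members lie below the other genes at the TSS and above them from 1.5 to 2.5 kb downstream (11% against 4.89% at 2 kb).

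Within 1 kb of their TSSs, the 37 members held 3 to 47 WT H3K4me3 tags with a median of 24. The median summed value was 2.4 RPM, as over all 6929 listed autosomal genes, and 18 of the 37 were above it. Sox4, Foxm1, Foxo1 and Sox12 were in the top 10% of listed autosomal genes, which began at 3.8 RPM. The single strongest window of any member held 7 tags, so each promoter rests on few tags per window.

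Among the Fox genes, the FoxO, FoxP, FoxJ and FoxK groups were listed in WT in most members. Foxo1, a forkhead factor that in T cells drives homing and survival genes, had 4.4 RPM in WT over 10 windows (44 tags, exact 95% Poisson interval 32.0 to 59.1). Foxo3, a close relative that restrains cell cycle entry, had 3.6 RPM over 10 windows (36 tags), and its whole peak at chr10:41993401-41998600 summed to 9.2 RPM, the strongest promoter peak of any member. Foxo6, which is mainly a brain factor, was in no list, with 171 CpG and the nearest WT window 106 kb away. All of Foxj1 (2.6 RPM), Foxj2 (2.8 RPM) and Foxj3 (3.5 RPM) were listed; Foxj1 is best known for driving motile cilia. Foxk1 (2.9 RPM) and Foxk2 (1.8 RPM), broadly used forkhead repressors, were both listed, Foxk2 at a TSS other than its outermost one.

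Foxm1, a forkhead activator of cell division genes, had 4.5 RPM over 13 windows, of which 9 lay nearest its own TSS and the rest nearest the TSS of 5930416I19Rik. Its value cannot be told apart from that of this neighbour. The windows of Foxa3 (2.4 RPM) and Foxq1 (2.0 RPM) were likewise shared with Sympk and A530084C06Rik, while those of the other 34 listed members all lay nearest their own TSS. Foxp1, which T cells need for quiescence, had 2.2 RPM at a TSS other than its outermost one, and its relative Foxp4 had 0.6 RPM over 2 windows (6 tags). Foxp2, a factor of brain and lung, had no H3K4me3 window, the nearest in WT lying 524 kb away. Foxn3, a forkhead repressor, had 2.7 RPM at an inner TSS, whereas Foxn1, the factor that thymic epithelium depends on, was in no list, with the nearest WT window 40.7 kb away. Foxn2 and Foxn4 also had no window at a TSS.

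Several Fox genes known for embryonic tissues were listed in WT while their closest paralogues were not. Foxe1 (3.0 RPM), a thyroid factor, was listed and Foxe3 was not. Foxc1 (2.1 RPM), a mesoderm factor, was listed, and the nearest window of Foxc2 lay 2.27 kb from its TSS. Foxd2 (2.5 RPM) and Foxd4 (1.4 RPM) were listed, and Foxd1 and Foxd3 were not. Foxa3 was listed, and the endoderm factors Foxa1 and Foxa2 had their nearest WT windows 1580 and 359 kb away. Foxs1 (1.4 RPM), which has no other member of its letter, was listed. Foxf1a, Foxf2, Foxh1, Foxi1, Foxi2, Foxi3, Foxl2 and Foxr1, of letter groups without a member listed in WT, were not. With a promoter of 2.5 kb, Foxc2, Foxf1a and Foxh1 were listed in WT as well.

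Among the Sox genes, 2 of the 3 SoxC members were listed. Sox4, which early lymphoid progenitors use, had the highest promoter value of all members at 4.7 RPM over 11 windows (47 tags, 34.5 to 62.5). Its peak covered chr13:29043801-29046000, and no window was listed there in Cxxc1-deficient cells or for Cxxc1. Sox12 had 3.8 RPM over 8 windows (38 tags). Sox11 was in no list, and its nearest WT window lay 927 kb away although it had as many CpG around its TSS as any unlisted member.

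Sox13, a SoxD factor known from γδ T cells, had 1.1 RPM (11 tags), Sox6 0.3 RPM (3 tags in 1 window) and Sox5 no TSS window. Of the SoxE genes, Sox8 had 2.6 RPM in WT, while Sox9, needed for cartilage and testis, and Sox10, needed for neural crest, were not listed in WT. Of the SoxF endothelial genes, Sox18 had 2.5 RPM, and Sox7 and Sox17 had windows only further into the gene. Sox15 (1.4 RPM) and Sox30 (1.9 RPM), the latter a testis factor, were listed. The neural genes Sox2, Sox14 and Sox21 were in no list.

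Of the Pax genes, Pax3 (1.9 RPM), Pax6 (2.5 RPM), Pax7 (1.1 RPM) and Pax8 (2.0 RPM), known from muscle, eye and thyroid, were listed in WT. Pax6 has 21 annotated TSSs, which gives it more places to be counted than the median member with 1. Pax1, Pax2, Pax4, Pax5 and Pax9 were not listed at a TSS, including the B cell factor Pax5. Of the Lhx genes, Lhx2 (3.3 RPM), Lhx3 (1.9 RPM) and Lhx4 (3.0 RPM) were listed, and Lhx1, Lhx5, Lhx6, Lhx8 and Lhx9 were not. The windows of Lhx2, a forebrain factor, lay at inner TSSs in a peak at chr2:38206401-38212800 that summed to 7.6 RPM.

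Of the Tbx genes, Tbx3 (1.9 RPM), Tbx4 (0.3 RPM), Tbx5 (1.1 RPM) and Tbx6 (2.5 RPM), known from limb, heart and mesoderm, were listed in WT. Tbx21, the T-bet gene that directs type 1 helper T cells after activation, was in no list, with 128 CpG and the nearest WT window 20 kb away. Tbx1, Tbx2, Tbx10, Tbx15, Tbx18, Tbx19 and Tbx20 were also without a TSS window. The Nkx genes, homeodomain factors of heart, lung, gut and brain, had no WT TSS window, and the nearest WT window of Nkx2-1 lay 975 kb away. Over the 63 members not listed in WT, the nearest WT window lay a median of 56.9 kb away, within 5 kb in 7 of them and beyond 50 kb in 33.

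The limit of 1 kb placed some members just inside and others just outside. Tbx4 and Sox6 were counted from a single window 0.867 and 0.943 kb from a TSS, while the nearest windows of Foxf1a, Foxh1 and Foxb2 lay 1.03, 1.62 and 2.07 kb from theirs. Foxf1a thus had H3K4me3 listed in its gene, over 7 windows with 2.1 RPM, although it counted among the genes without a TSS window.

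**Figure D4:**
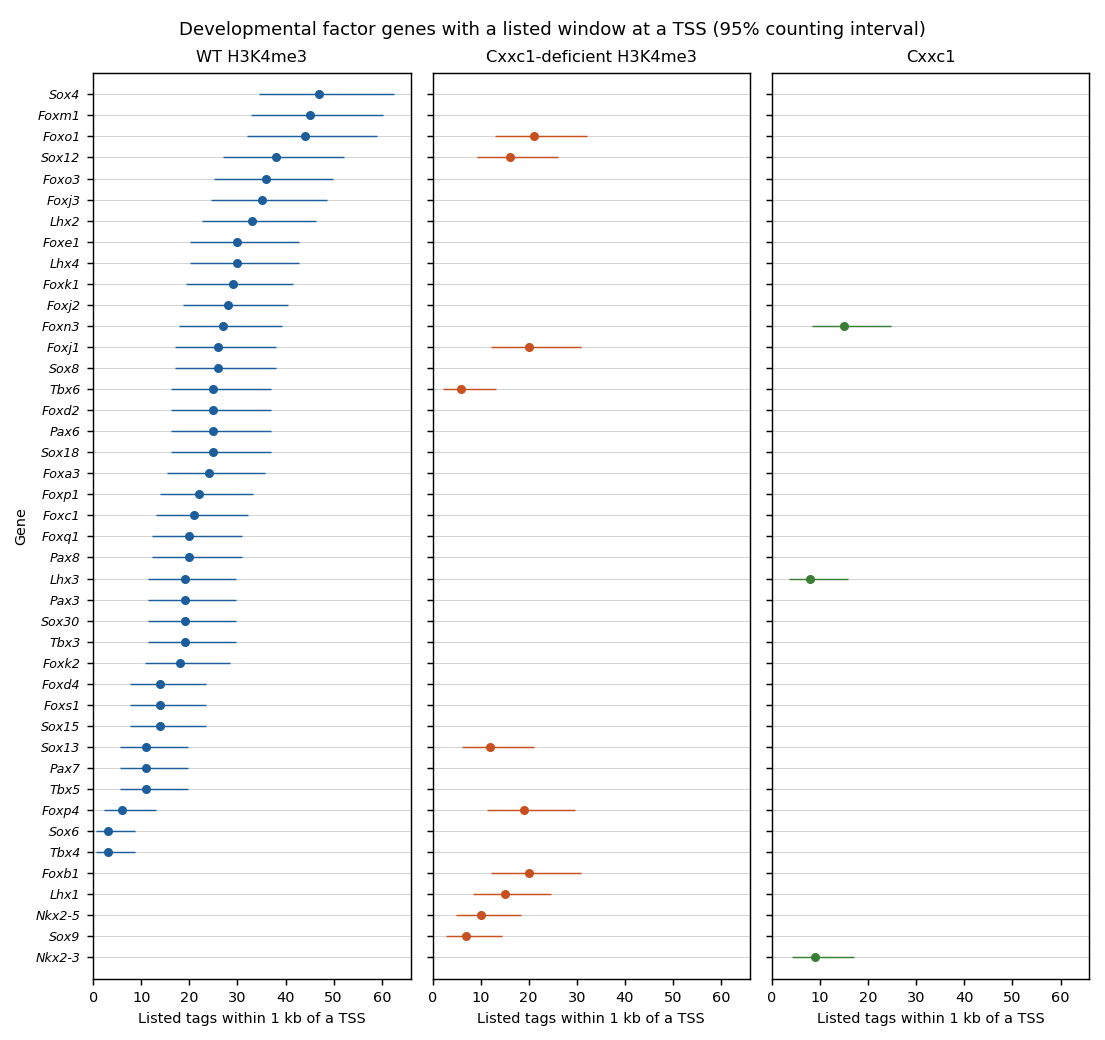
Tags in listed windows within 1 kb of a TSS (x axis) of each developmental factor gene with a window (y axis), 1 panel per list; points are 1 library each, bars are exact 95% Poisson intervals, and no point means no listed window. WT values were between 3 and 47 tags, 10 genes have a Cxxc1-deficient point and 3 genes have a Cxxc1 point.

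In Cxxc1-deficient cells, H3K4me3 was listed at 6 of the 37 members listed in WT (16.2%, 7.65 to 31.1), against 12.8% of all autosomal genes listed in WT. Foxo1 had 44 tags in WT (32.0 to 59.1) and 21 in Cxxc1-deficient cells (13 to 32.1), with 6 windows shared between the lists. Sox12 had 38 tags in WT (26.9 to 52.2) and 16 in Cxxc1-deficient cells (9.15 to 26.0), with 3 shared windows. Its Cxxc1-deficient peak at chr2:152221201-152224000 lay inside the WT peak. Foxj1 had 26 and 20 tags with 5 shared windows, and Sox13 11 and 12 tags with 4. Listed tags of these last 2 genes were close in the 2 genotypes, and those of Foxo1 and Sox12 were fewer without Cxxc1. The sums do not cover the same windows, since tags in unlisted windows are unknown. Foxo1 had 10 listed windows in WT and 6 in Cxxc1-deficient cells, and Sox12 had 8 and 5. The counting intervals of Foxo1 overlapped narrowly and those of Sox12 did not overlap. These intervals do not cover differences between libraries.

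Foxp4 had more listed tags without Cxxc1, with 6 in WT (2.2 to 13.1) and 19 in Cxxc1-deficient cells (11.4 to 29.7). The 2 intervals overlapped. The sums are over 2 windows in WT and 5 in Cxxc1-deficient cells, of which only 1 was shared, and tags in unlisted windows are unknown. Tbx6 had 25 tags in WT (16.2 to 36.9) and 6 in Cxxc1-deficient cells (2.2 to 13.1), with no shared window. Its Cxxc1-deficient peak lay upstream and also covered TSSs of Ypel3 and Gm9967. Listed only without Cxxc1 were Foxb1 (2.0 RPM, 20 tags, 12.2 to 30.9), Lhx1 (1.5 RPM, 15 tags), the heart factor Nkx2-5 (1.0 RPM, 10 tags) and Sox9 (0.7 RPM, 7 tags). The nearest WT windows of these 4 genes lay 8.61 to 251 kb from their TSSs. Of the 10 members listed without Cxxc1, 6 were also listed in WT (60.0%, 31.3 to 83.2), against 67.9% of all autosomal genes listed without Cxxc1. The interval included that share. The other 31 members listed in WT had no Cxxc1-deficient window at a TSS, among them Sox4, Foxo3 and Lhx2, and their signal there is unknown. The Cxxc1-deficient list was shorter genome-wide, and the genotype and the library cannot be told apart.

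Cxxc1 windows lay at a TSS of Foxn3, Lhx3 and Nkx2-3. At Foxn3 there were 1.6 RPM (15 tags, 8.4 to 24.7), in a peak at chr12:100632001-100633000 that overlapped the end of the WT H3K4me3 peak at chr12:100630201-100632200. At Lhx3 there were 0.8 RPM (8 tags, 3.45 to 15.8) near an inner TSS, apart from the WT H3K4me3 peak of that gene. Nkx2-3, a factor of gut and spleen, had 0.9 RPM (9 tags, 4.12 to 17.1) and no H3K4me3 window in either genotype. Sox4, Foxo1, Sox12 and Foxo3, with high WT H3K4me3, had no Cxxc1 window at a TSS.

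The gene body was the whole annotated gene, which in some members extended upstream of the outermost protein-coding TSS. In the gene body, more than 1 kb from any protein-coding TSS of the gene, 36 members had a WT H3K4me3 window, against 21.4% of all autosomal genes. There were 8 with a Cxxc1-deficient window, against 5.89%, which in Foxb1 and Sox12 belonged to the promoter peak, and 11 with a Cxxc1 window, against 8.77%. Among genes with a CpG island the WT shares were 35.2% of members (26.1 to 45.6) and 29.2% of other genes, which the interval included. The members with a WT body window were longer, with a median of 24.5 kb against 5.51 kb for the rest, and those with a Cxxc1 body window had a median of 94.9 kb against 5.59 kb. In 16 of the 36 genes the body windows belonged only to the promoter peak, namely Foxd2, Foxd4, Foxe1, Foxj1, Foxj2, Foxo1, Foxs1, Lhx2, Pax7, Pax8, Sox8, Sox12, Sox18, Tbx4, Tbx5 and Tbx6. The other 20 had a peak of their own inside the gene.

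Some members held several such inner peaks. Foxn3 (255 kb long) had 5 WT peaks of 1.8 to 2.5 RPM and 2 Cxxc1 peaks, and Sox13 (42.1 kb) had 5 WT peaks of 1.6 to 3.4 RPM. Foxk1 had 4 WT peaks and Foxp4 3, the strongest of these in Foxp4 with 3.4 RPM at chr17:48046001-48049000. Foxp1 had 2 WT peaks near its 3′ end, and its 3 Cxxc1-deficient peaks of 1.5 to 2.4 RPM lay elsewhere, 12.2 to 91.1 kb into the gene. Single or paired WT peaks lay in Foxa3, Foxf1a, Foxn4, Lhx4, Lhx6, Pax2, Sox4, Sox6, Sox7, Sox17, Sox30 and Tbx10, with 1.1 to 2.9 RPM each.

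Inner peaks were found in both genotypes at the same place in 3 members. In Foxo3 a WT peak of 3.7 RPM (37 tags) centred 8.06 kb into the gene overlapped a Cxxc1-deficient peak of 2.2 RPM (22 tags), although its promoter was listed in WT only. In Sox13 a WT peak of 3.4 RPM overlapped a Cxxc1-deficient peak of 1.8 RPM, centred 38.4 and 38.1 kb into the gene. In Nkx2-2, a factor of neural tube and pancreas, a WT peak of 1.7 RPM and a Cxxc1-deficient peak of 2.1 RPM overlapped near the 3′ end of the gene. Foxo1 had a Cxxc1-deficient peak of 2.8 RPM 36.6 kb into the gene with no WT window there.

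There were 15 inner Cxxc1 peaks in 9 members, and none of them overlapped a listed H3K4me3 window of either genotype. The study reports that very few Cxxc1 sites coincide with H3K4me3 genome-wide, so this cannot be read as a trait of these members. The share over all inner Cxxc1 peaks was not computed. Sox5, the longest member at 954 kb, had 3 Cxxc1, 1 WT and 2 Cxxc1-deficient peaks, none of which overlapped. Its annotated gene extends upstream of its outermost protein-coding TSS. The Cxxc1-deficient peaks lay in that upstream part, centred at -61.5 and -381 kb from this TSS, as did Cxxc1 peaks at -5.62 and -329 kb. Whether these lie at TSSs of other transcripts was not examined. Foxp2 had 3 Cxxc1 peaks and Pax5 had 2, and both had no H3K4me3 window in the gene. Foxr1 had the strongest Cxxc1 body peak with 3.8 RPM over 13 windows at chr9:44242001-44246000. Foxk2, Foxo3, Pax9 and Sox6 had 1 Cxxc1 body peak each of 1.4 to 2.2 RPM. In Lhx3 and Nkx2-3 the Cxxc1 body windows belonged to the TSS peak.

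T lineage factor genes and Polycomb genes gave points of reference. Of 15 T lineage transcription factor genes, 13 were listed in WT H3K4me3 with up to 7.0 RPM at Satb1, above the 4.7 RPM of Sox4, and Ets1 and Ikzf3 were not. All 15 had a CpG island at a TSS, and 50.9% of all autosomal genes with an island were listed in WT. In Cxxc1-deficient cells 3 of the 15 were listed (Gata3, Lef1 and Runx1), and Cxxc1 was listed at Tcf7 of the 15. Of 18 Polycomb genes, which encode the proteins that hold developmental promoters inactive, 15 were listed in WT, 1 in Cxxc1-deficient cells (Eed) and 2 for Cxxc1 (Pcgf2 and Suz12).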

How the data were processed

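Cxxc1 and H3K4me3 ChIP-seq of DP thymocytes was analysed from 3 lists. Groups were taken from the sample titles, with 1 library per group. The Cxxc1-deficient Cxxc1 ChIP and the WT input, which complete the 5 samples, were not analysed here. Per the study's methods, 50-bp reads were aligned to mm9 and those with a single position entered island calling with input and Cxxc1-deficient ChIP DNA as controls. The submitters' processing notes name CASAVA 1.8.2 and SICER 1.1. The aligner, the treatment of duplicates and the control used for H3K4me3 are not given in the sources used here, and all of these bear on which windows appear. The authors deposited, for the 200-bp windows in called islands, values in RPM at 1 decimal.

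The value of 1 tag was read from which decimals occur (0.1056 to 0.1062 RPM for both H3K4me3 lists, 0.1094 to 0.11 RPM for Cxxc1), and tag numbers were obtained from it. The lowest listed window held 2 tags. Windows with up to 2 unlisted windows between them were merged into a peak. Gene models were GENCODE vM1 on the assembly of mm9, and 67 gene entries nested in a gene of the same symbol were merged. Overlap meant at least 1 bp. CpG numbers were counted in the mm9 sequence. Shares carry 95% Wilson intervals over genes and tag sums exact 95% Poisson intervals; both cover counting error only, and PCR duplicates are not independent molecules. No test was run. The assignment of windows to genes and the tag numbers were tested on simulated data.

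The members and lists were chosen with earlier results of these data known. Named were all members with a window at a TSS or in the gene body, the most CpG-rich member of each family without a TSS window, and their closest paralogues; 1 member is counted but not reported here by name. Alternatives were a promoter of 2.5 or 5 kb, at least 2 windows, the stronger 50% of peaks, the outermost TSS alone, windows nearest the member's TSS alone, a gene body beginning at 2.5 kb, and CpG islands of at least 200 bp, 50% GC and a ratio of 0.6. Those of the share of all autosomal genes were chosen after seeing the data. Python 3.11.15, numpy 2.4.6, pandas 2.3.3, scipy 1.17.1 and matplotlib 3.10.9 were used.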

Additional observations from a re-analysis of the deposited data

How the results depend on the processing

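The number of members listed at a TSS in WT H3K4me3 was between 25 (stronger 50% of peaks) and 44 (promoter of 5 kb), against 37 as reported, and that in Cxxc1-deficient H3K4me3 between 7 and 11, against 10; the share of all autosomal genes listed in WT went from 21% to 37% over the same settings. With the stronger peaks alone, Foxp1, Foxp4 and Sox6 were among the 12 members lost in WT. With the outermost TSS alone, Foxk2, Foxn3, Foxp1, Lhx2 and Tbx4 were lost in WT. The members with a Cxxc1 window at a TSS numbered 6 with a promoter of 5 kb and 1 (Nkx2-3) with the outermost TSS alone, against 3. A gene body that begins 2.5 kb from a TSS left 20 members with a WT body window, against 36. Among genes with a CpG island, the share listed in WT was 26.1% of members and 33.3% of all genes with the stronger peaks alone, 42.0% and 52.6% with a promoter of 2.5 kb, and 38.5% and 44.1% with CpG islands of at least 200 bp, so members had the lower share under each of these settings. Their interval lay below the share of all genes with a promoter of 2.5 kb (32.3 to 52.5) and included it with the stronger peaks (18.1 to 36.2) and with the shorter islands (29.4 to 48.5). No paired analysis was possible because every condition was sequenced once, and no replicate could be left out. Depth limits the values: the single strongest promoter window of a member held 7 tags, and places below the authors' threshold are not listed.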
